A study of Mus musculus with 8 samples.

Results

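The genes that control passage through G1, the phase of the cell cycle before DNA synthesis, were examined in the left and right heart fields of mouse embryos. The set holds 10 genes: the D-type cyclins Ccnd1, Ccnd2 and Ccnd3, the kinases Cdk4 and Cdk6, the kinase inhibitors Cdkn1b and Cdkn1c, the retinoblastoma gene Rb1, and the transcription factors Myc and Mycn. They were found by gene symbol, a rule that uses no measured value, and are 10 of the 48526 genes counted. All 10 were among the 9744 genes that passed the filter on low counts, a normalized read count of 20 or more in 4 or more of the 8 libraries. Of these, 9 were above that level in all 8 libraries, and Rb1 was in 5 of 8.

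Bulk RNA sequencing had been performed on 4 Wild-type male embryos of the C57bl6/J strain at stage E8.5f, when the heart tube is looping. From each embryo, named L29-3, L43-5, L46-8 or L49-3, the dissected block reached from the headfolds, which were left out, as far as the second somite. Heart and dorsal tissue were trimmed off, and a midline cut separated the sides. The left and the right piece were sequenced as separate libraries without pooling, so that 4 left libraries are paired with 4 right libraries of the same animals. All groups share genotype, strain, sex and stage and received no treatment, and the pieces contain every cell type of the dissected region.

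D-type cyclins are made in response to growth signals and switch on CDK4 and CDK6, which phosphorylate the RB1 protein. Phosphorylated RB1 lets go of E2F transcription factors, which then turn on genes for DNA synthesis. CDKN1B (p27) and CDKN1C (p57) are inhibitors of cyclin-CDK complexes and are known for restraining division as cells differentiate, whereas MYC and MYCN are transcription factors that pair with MAX at the E-box CACGTG and promote growth and division. In the heart, progenitors in the field behind the tube keep dividing while they are added to its poles, and Mycn is known for its requirement in expansion of the myocardium.

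Sequence upstream of the start site is shown for Cdk4 and Mycn, because Cdk4 is a well known target of MYC and E2F factors act on genes that promote division. In the Cdk4 sequence, capitals mark CACGTG. In the Mycn sequence, capitals mark TTTGGCGC and TTTCGCGC, which are E2F-type motifs. All motifs were searched on both strands.
Cdk4 (RefSeq, GRCm38.p6, chr10:127063285-127063533, plus strand): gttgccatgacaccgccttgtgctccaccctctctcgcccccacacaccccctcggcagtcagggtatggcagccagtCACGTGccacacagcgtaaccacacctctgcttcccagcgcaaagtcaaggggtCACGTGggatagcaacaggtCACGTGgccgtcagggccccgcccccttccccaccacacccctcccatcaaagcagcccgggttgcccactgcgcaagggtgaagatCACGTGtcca
Mycn (RefSeq, GRCm38.p6, chr12:12941915-12942086, minus strand): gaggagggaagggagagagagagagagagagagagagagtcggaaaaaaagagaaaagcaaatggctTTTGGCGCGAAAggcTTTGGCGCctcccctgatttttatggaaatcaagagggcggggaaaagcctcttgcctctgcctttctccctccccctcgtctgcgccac
The window searched ran from 250 bases before to 50 bases after the RefSeq start site, and 5 of the 10 genes had one. Cdk4 held 4 E-boxes, which began 172, 118, 98 and 11 bases upstream of the start, and Cdk6 held 1 at 220 bases. The Cdk6 window (chr5:3343643-3343942, plus strand) lies inside the annotated gene used for counting, which starts at 3341485. Its E-box is therefore upstream of the RefSeq start only. Of all 32851 mouse windows of this length, 7.15% held at least 1 E-box of this form. Positions count from the RefSeq start, which lies 78 bases beyond the end of the Mycn stretch printed. The Mycn window had TTTGGCGC at 183 and 168 bases and TTTCGCGC, read on the other strand and overlapping the first of these, at 179 bases. Either E2F-type motif was present in 0.813% of all windows. Cdkn1b and the 2 start sites of Ccnd3 had none of the 3 motifs. These matches describe letters only, and binding was not measured. Ccnd1, Ccnd2, Cdkn1c, Rb1 and Myc are named here without sequence.

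Total counts after removal of duplicate reads by the authors ranged from 1147446 to 3520753 per library. A gene with no read could lie anywhere below 0.852 CPM (counts relative to library size) in the largest library and below 2.62 CPM in the smallest, the limit that 3 counts set, for counting error only. Heart field markers were found in every library, with 10 of 10 at a mean normalized read count of at least 20 and a summed count from 1023 to 1547 on the left and from 1242 to 1418 on the right. The samples were not pure, since 6 of 6 neural tube markers, 7 of 8 cardiomyocyte markers, 5 of 6 endothelial and 5 of 6 foregut markers also reached this level, while 0 of 3 neural crest and 0 of 4 primitive blood markers did. L49-3 stood apart: its juxta-cardiac field markers Tbx5 and Mab21l2 summed to 24.8 on the left and 23.3 on the right, against 126.5 to 211.6 in the other embryos. Its values are therefore also given apart or left out below.

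The 10 genes differed widely in level, which was compared between genes as TMM-normalized CPM per kilobase of exons. Cdk4 was the highest at 210.2 ± 11.3 CPM per kilobase (SD, n = 8 libraries from 4 embryos), a level above that of 98% of the genes tested. Cdkn1c followed with 133.7 ± 33.3, then Ccnd2 with 64.0 ± 13.1 and Mycn with 57.7 ± 6.23 CPM per kilobase. Ccnd1 was at 33.4 ± 2.77, Myc at 20.3 ± 3.26 and Ccnd3 at 18.3 ± 2.21 CPM per kilobase. The lower end held Cdkn1b with 10.1 ± 2.42, Cdk6 with 5.01 ± 0.746 and Rb1 with 2.32 ± 0.634 CPM per kilobase, the latter below most tested genes at the 5.75th percentile. Each gene exceeded the next in this order in 8 of 8 libraries, except for Ccnd2 over Mycn, which held in 5 of 8, and Myc over Ccnd3, which held in 6 of 8. Those 2 pairs of neighbors did not differ beyond their spread, and the ranges over libraries also touched for Cdkn1c with Ccnd2 and for Cdkn1b with Cdk6. The order was the same without L49-3, but Ccnd3 came above Myc when the length of the longest transcript replaced the summed exons.

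**Figure D1:**
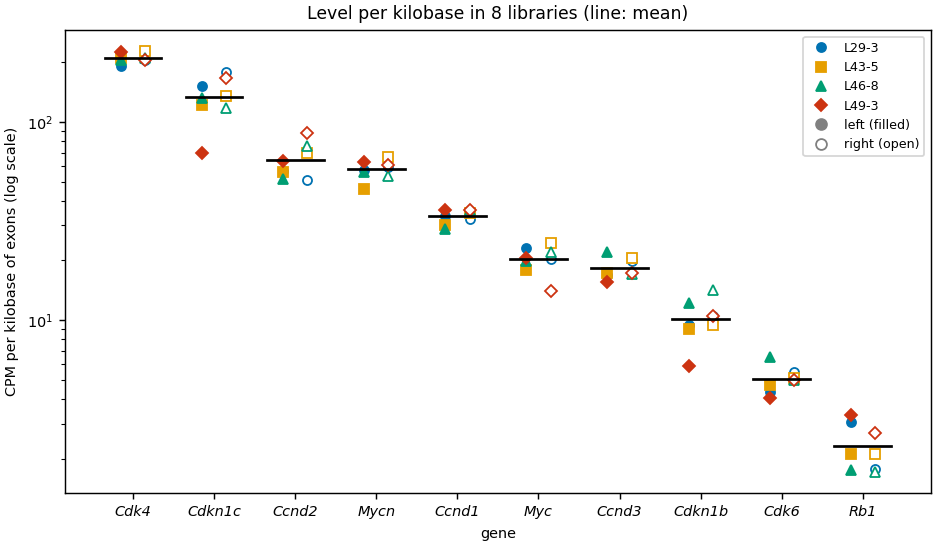
Levels of the 10 genes in TMM-normalized CPM per kilobase of exons, on a log axis, in each of 8 libraries. Filled symbols are left and open symbols right heart fields, each embryo has its own shape, and lines are means, from 210.2 for Cdk4 down to 2.32 for Rb1. The left library of L49-3 is the lowest for Cdkn1c and Cdkn1b.

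Left and right heart fields were then compared with edgeR, with the embryo as a block, to ask whether G1 regulators are asymmetric when the tube loops. The criterion of the study was a fold change in either direction of 1.2 or more together with an unadjusted p no higher than 0.05, and 1 of 10 genes met it. This was Ccnd2, lower on the left, and over all tested genes 3.05% passed in either direction and 1.42% lower on the left. With edgeR, 0 of 10 had an adjusted p under 0.05, where 0.0103% of all tested genes did. The count was also 0 with DESeq2 (0.0205% of all tested genes) and with limma-voom on the same genes (0.0103%). In edgeR, 1 of 10 was at an unadjusted p under 0.05, as were 4.36% of all tested genes. The log2 difference between left and right was negative for 9 of 10 genes and positive for 1, with a median of -0.10 on the log2 scale against 0.00 over all tested genes (-0.00423). The number of negative values was 8 with DESeq2 and 6 without L43-5, and Myc, counted as negative, had nearly equal means. In these bulk samples, fewer cells of a type and less RNA per cell cannot be told apart. Without L49-3, 0 of 10 passed the criterion, against 2.86% of all tested genes.

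The ranges of the sides overlapped for every gene of the set. No gene of the set thus had every left library below every right library, which was the case for 1.01% of all tested genes. Only Cdkn1b, 1 of 10, had less on the left in 4 of 4 embryos, which was the case for 6.11% of all tested genes.

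**Figure D2:**
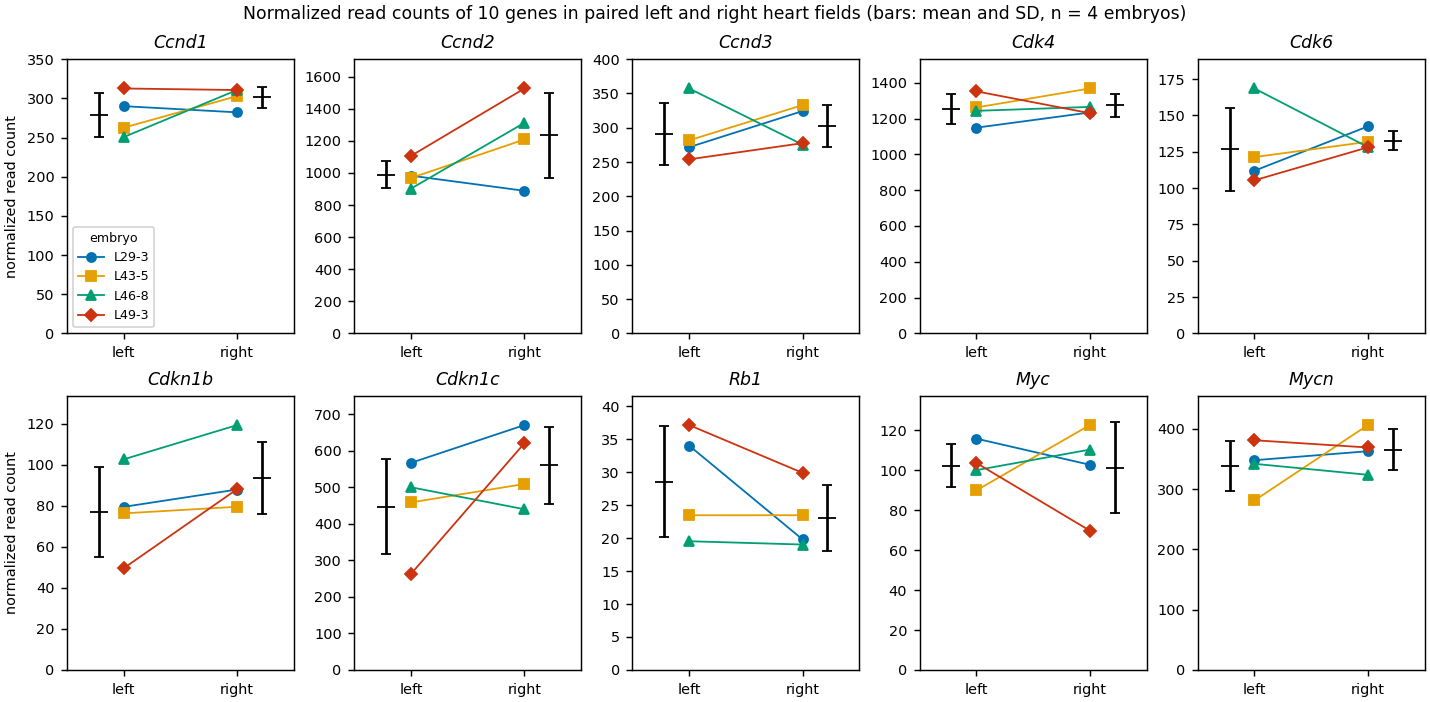
Normalized read counts of each gene on the left and right, with a line joining the sides of each embryo and bars for mean and SD over 4 embryos. Ccnd2 is higher on the right in 3 of 4 embryos, Cdkn1b in 4 of 4, and left and right values overlap in all 10 panels.

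**Figure D3:**
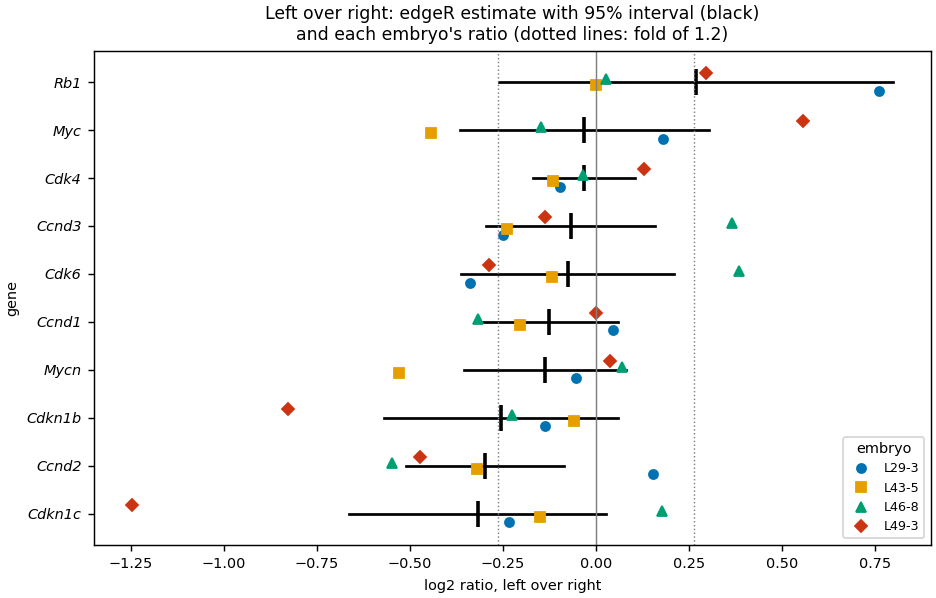
Left over right log2 difference of each gene, as the edgeR estimate with its 95% interval (black) and as the ratio within each embryo (symbols); dotted lines mark a fold of 1.2. The interval of Ccnd2, from -0.51 to -0.09, is the only one among the 10 that leaves out 0.

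Among the D-type cyclins, Ccnd2 had the highest level per kilobase in every library and was the gene that passed the criterion. It lies at GRCm38 chr6:127125162-127152193 on the minus strand (ENSMUSG00000000184). Its normalized read count on the left against the right was 983 against 889 in L29-3, 969 against 1209 in L43-5, 903 against 1313 in L46-8, and 1107 against 1527 in L49-3. The right side was thus higher in 3 of 4 embryos and lower in L29-3, and the sides overlapped. The left libraries averaged 990 ± 85.3 (SD, n = 4) and the right libraries 1235 ± 266 (SD, n = 4). The edgeR log2 difference, left over right, was -0.30 with a standard error of 0.0971 and a 95% interval from -0.51 to -0.09, or 1.23-fold higher on the right. The unadjusted p was 0.0096, the 65th smallest of all tested genes, and the edgeR adjusted p was 0.987. With no filter on low counts the adjusted p was 0.00955. Leaving out L46-8 gave -0.21 (unadjusted p = 0.0548) and leaving out L49-3 gave -0.24 (unadjusted p = 0.0609) on the log2 scale, either of which ends the call.

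The sum of the neural tube markers moved with Ccnd2 within embryos, although not every single marker did. The summed normalized count of 6 neural tube markers on the left against the right was 638 against 535 in L29-3, 371 against 718 in L43-5, 479 against 657 in L46-8, and 918 against 1029 in L49-3. Sox1, Sox3 and Pax6 each had more on the side with more Ccnd2 in every embryo, but Irx3, Sox2 and Nkx6-1 did not. Irx3 was higher on the left in L46-8 (340 against 306) and L49-3 (381 against 309). Sox2 was higher on the left in L49-3 (197 against 153). Nkx6-1 went against Ccnd2 in L29-3 (25.1 against 47.0) and L43-5 (33.25 against 19.2). In 4 of 4 embryos the side with the higher sum was the side with more Ccnd2, and L49-3 had the highest value of both on either side. Heart field, cardiomyocyte and paraxial mesoderm marker sums each went with Ccnd2 in 3 of 4 embryos. Foregut endoderm markers did so in 2 of 4, and juxta-cardiac field and endothelial markers in 1 of 4. Across the 8 libraries, the neural tube sum correlated with Ccnd1 (r = 0.86) more than with Ccnd2 (r = 0.75). The pairing of Ccnd2 with neural tube markers was picked after the values were seen, out of 70 pairings of a gene with 1 of 7 marker groups. Of these, 4 had the same direction and 4 the opposite direction in all embryos. The part of neural tube cells in the Ccnd2 difference was not tested.

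Ccnd1 and Ccnd3 showed no difference past the criterion. Ccnd1 (ENSMUSG00000070348, chr7:144929931-144939925, minus strand) had normalized read counts on the left against the right of 290.2 against 282 in L29-3, 263 against 303 in L43-5, 251 against 311 in L46-8, and 313 against 311 in L49-3. All 8 values lay close together, with a coefficient of variation of 8.29% in level, and the left was higher in 2 of 4 embryos. The log2 difference was -0.13 with a standard error of 0.0844 and a 95% interval from -0.31 to 0.06 (edgeR adjusted p = 0.987). For Ccnd3 (ENSMUSG00000034165, chr17:47505051-47599691, plus strand), the counts were 272 against 324 in L29-3, 282 against 333 in L43-5, 357 against 275 in L46-8, and 254 against 278 in L49-3. L46-8 was the exception, with the left higher, and the other 3 embryos had more on the right. The log2 difference was -0.07 with a standard error of 0.104 and a 95% interval from -0.30 to 0.16, and it was -0.22 without L46-8 (unadjusted p = 0.0273), still under the fold required.

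Per kilobase of exons, Ccnd2 made up 54.9% ± 4.27 (SD, n = 8 libraries) of the summed level of the 3 D-type cyclins, Ccnd1 29.02% ± 2.13 and Ccnd3 16.1% ± 3.15. These shares, and the ratios of level between the cyclins, depend on the gene length used. Per kilobase of the longest transcript, mean levels were 95.1 CPM for Ccnd2, 42 for Ccnd1 and 41.6 for Ccnd3, so that Ccnd1 and Ccnd3 were nearly equal. The ratio of Ccnd2 to Ccnd1 per kilobase on the left against the right was 1.70 against 1.58 in L29-3, 1.85 against 2.0 in L43-5, 1.80 against 2.11 in L46-8, and 1.77 against 2.46 in L49-3. It was nearly constant on the left and more spread on the right, and the log2 ratio differed by -0.18 between left and right (p = 0.25 in a two-sided exact permutation test that flips the signs of embryos, and 0.875 adjusted over 6 ratios). With 4 embryos there are 16 sign patterns, so that the smallest p of this test is 2 of 16. Without L49-3 the difference in the log2 ratio was -0.08, and without L29-3 it was -0.27. Ccnd2 was at 3.25 ± 0.703 times the level of Ccnd3 in left and 3.88 ± 1.14 times in right libraries (exact permutation p = 0.5), and the mean log2 difference of -0.23 between sides became 0.00 (-0.00408) without L46-8.

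The kinases partnered by these cyclins were expressed very unequally. Cdk4 (ENSMUSG00000006728, chr10:127063534-127067920, plus strand) had normalized read counts on the left against the right of 1149 against 1234 in L29-3, 1262 against 1368 in L43-5, 1243 against 1265 in L46-8, and 1352 against 1230 in L49-3. It was the steadiest gene of the set, with a coefficient of variation of 5.4% in level per kilobase over the 8 libraries. The log2 difference was -0.03 with a standard error of 0.0623, and its 95% interval from -0.17 to 0.10 was the narrowest of the 10. Cdk6 (ENSMUSG00000040274, chr5:3341485-3531008, plus strand) had 112 against 142 in L29-3, 121 against 132 in L43-5, 169 against 128 in L46-8, and 105 against 128 in L49-3. As for Ccnd3, the left was higher in L46-8 alone, and the log2 difference was -0.08 with a 95% interval from -0.36 to 0.21, or -0.24 without L46-8 (unadjusted p = 0.0903). Per kilobase, Cdk6 was at 0.0236 ± 0.00563 of the level of Cdk4 on the left and 0.0242 ± 0.00187 on the right (exact permutation p = 0.75).

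Both kinase inhibitors had lower means on the left, without passing the criterion. Cdkn1b (ENSMUSG00000003031, chr6:134920401-134925513, plus strand) had normalized read counts on the left against the right of 79.5 against 87.9 in L29-3, 76.3 against 79.5 in L43-5, 103 against 119 in L46-8, and 49.6 against 88.1 in L49-3. The right was higher in every embryo, by little in L29-3 and L43-5 and most in L49-3. The log2 difference was -0.26 with a standard error of 0.144 and a 95% interval from -0.57 to 0.06 (unadjusted p = 0.102). Without L49-3 it was -0.14 on the log2 scale (unadjusted p = 0.321).

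Cdkn1c, an imprinted gene expressed mainly from the maternal copy (ENSMUSG00000037664, chr7:143458339-143461050, minus strand), had the log2 difference farthest from 0 in this edgeR fit. Ccnd2 was farther from 0 than Cdkn1c in edgeR with no block, and without L29-3 or L49-3. With limma-voom, Ccnd2 was farther with the block (same genes or all genes) and on all genes with no block. On the same genes with no block, limma-voom gave -0.2978 for Ccnd2 and -0.2991 for Cdkn1c. Rb1 was farther from 0 than Cdkn1c with limma-voom on all genes with the block (0.26 against -0.22). It was also farther without L43-5 (0.395 against -0.3825) and without L49-3 (0.26 against -0.08). The normalized read count of Cdkn1c on the left against the right was 568 against 671 in L29-3, 459 against 509.6 in L43-5, 500.5 against 440.3 in L46-8, and 263 against 622 in L49-3. The left library of L49-3 was the lowest of all 8, and L46-8 went in the opposite direction. Left libraries averaged 448 ± 131 and right libraries 561 ± 105 (SD, n = 4). The log2 difference was -0.32 with a standard error of 0.158 and a 95% interval from -0.66 to 0.03 (unadjusted p = 0.0679, edgeR adjusted p = 0.987). Without L49-3 it was -0.08 (unadjusted p = 0.425), and without L46-8 it was -0.47 (unadjusted p = 0.00971) and passed the criterion.

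Cardiomyocyte markers varied in the same libraries. Their summed normalized count on the left against the right was 5066 against 4866 in L29-3, 2771 against 4111 in L43-5, 3179 against 1799 in L46-8, and 667 against 2187 in L49-3, with 7 of 8 markers at a mean of at least 20 and Nppa near 0. The side with more of these markers had more Cdkn1c in 3 of 4 embryos, and the left library of L49-3 was the lowest for both. The same 3 of 4 held for heart field and for juxta-cardiac field markers, and 0 of 4 for foregut endoderm markers. The pairing with cardiomyocyte markers was also picked after the values were seen, from the same 70. The part of cardiomyocytes in the Cdkn1c values was not tested. Cdkn1c was expressed at 13.0 ± 2.21 times the level of Cdkn1b per kilobase on the left and 13.8 ± 3.89 times on the right (exact permutation p = 0.625).

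**Figure D4:**
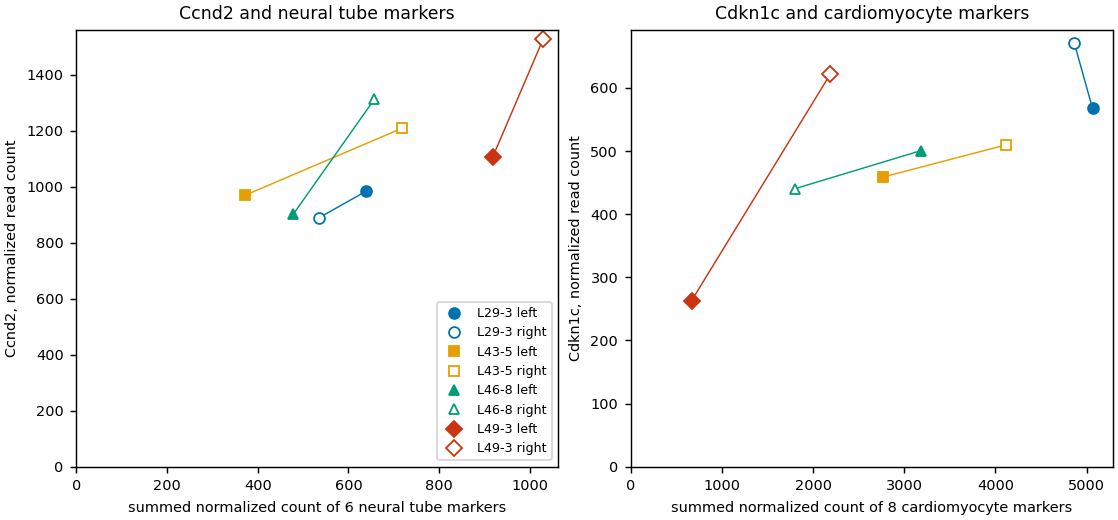
Normalized read counts of Ccnd2 against the summed count of 6 neural tube markers (left panel) and of Cdkn1c against that of 8 cardiomyocyte markers (right panel). Lines join the left (filled) and right (open) libraries of an embryo; they slope upward in 4 of 4 embryos for Ccnd2 and in 3 of 4 for Cdkn1c, where the left library of L49-3 is lowest on both axes.

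Rb1, whose product is the substrate of the cyclin D kinases, was the only gene of the set with a positive log2 difference (ENSMUSG00000022105, chr14:73183673-73325822, minus strand). Its normalized read count on the left against the right was 34.1 against 19.8 in L29-3, 23.5 against 23.5 in L43-5, 19.5 against 19.0 in L46-8, and 37.2 against 29.9 in L49-3. Only L29-3 and L49-3 showed a clear gap between sides, and the values are close to the filter of 20. The log2 difference of 0.27 had a standard error of 0.242, the largest in the set, and a 95% interval from -0.26 to 0.80. Without L29-3 it was 0.10.

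Myc and Mycn did not differ between sides past the criterion. Myc (ENSMUSG00000022346, chr15:61985391-61990374, plus strand) had normalized read counts on the left against the right of 116 against 103 in L29-3, 89.97 against 123 in L43-5, 100.1 against 110.4 in L46-8, and 104 against 69.8 in L49-3. The embryos split, with the left higher in 2 of 4, and the left mean of 102 ± 10.7 was nearly that of the right at 101 ± 22.6 (SD, n = 4). The log2 difference was -0.03 with a standard error of 0.154 and a 95% interval from -0.37 to 0.30, so that a 1.2-fold difference in either direction lay within the interval. Mycn (ENSMUSG00000037169, chr12:12936093-12941914, minus strand) had 348 against 363 in L29-3, 281 against 406 in L43-5, 342 against 324 in L46-8, and 381 against 369 in L49-3. L43-5 held both the lowest and the highest value, and the log2 difference was -0.14 with a 95% interval from -0.36 to 0.08. Per kilobase, Mycn was expressed at 2.72 ± 0.249 times the level of Myc on the left and 3.10 ± 0.861 times on the right (exact permutation p = 0.375), and it was above Myc in each of the 8 libraries, by between 2.42 and 4.36 times.

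Levels also varied between embryos. Averaged over both sides, Ccnd2 had a normalized read count that went from 936 in L29-3 over 1089 in L43-5 and 1108 in L46-8 up to 1317 in L49-3. Cdkn1b was highest in L46-8 at 110.9 and lowest in L49-3 at 68.8, and Rb1 was highest in L49-3 at 33.5 and lowest in L46-8 at 19.3. Cdk4 stayed within 1.10-fold between embryos and Rb1 within 1.74-fold. In the edgeR test of the embryo terms, 0 of 10 genes had an adjusted p under 0.05, against 0.174% of all tested genes. At an unadjusted p under 0.05 there were 2 of 10, Ccnd2 and Cdkn1b, against 9.99% of all tested genes, with edgeR adjusted p of 0.471 and 0.430. DESeq2 and limma-voom also called 0 of 10 after adjustment, against 0.493% and 0.0411% of all tested genes. They had 1 of 10 (DESeq2, 3.93% of all tested genes) and 2 of 10 (limma-voom, 9.82%) at an unadjusted p under 0.05. With edgeR and without L49-3, the 2 of 10 were Cdkn1b and Cdkn1c, against 4.44% of all tested genes. In that fit, 0 of all tested genes had an adjusted p under 0.05. Without L46-8 they were Ccnd2 and Cdkn1c, against 13.3% of all tested genes. The libraries of an embryo are both sides of the same animal, so this comparison is about these 4 embryos only.

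Across the 8 libraries, the log2 levels of Ccnd3 and Cdk6 had the highest correlation of the 45 pairs of genes (r = 0.90) and Cdk6 and Rb1 the lowest (r = -0.79). Both values are descriptions over libraries that share embryos.

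The wider G1/S machinery was examined through 38 further genes, among them E-type and A-type cyclins, E2F factors and their partners, and pocket proteins. Of these, 31 were tested, and 24 had a lower and 7 a higher level on the left, with a median log2 difference of -0.04. None passed the criterion with edgeR (0 of 31, against 3.05% of all tested genes). The count was also 0 with DESeq2 and limma-voom, where 0.606% and 3.09% of all tested genes passed. With edgeR, 1 of 31 was at an unadjusted p under 0.05, against 4.36% of all tested genes. It was Ccne1, the cyclin that activates CDK2 after cyclin D, with log2 ratios, left over right, of -0.31, -0.27, -0.20 and -0.14 in embryos L29-3, L43-5, L46-8 and L49-3. Ccne1 was thus lower on the left in 4 of 4 embryos, and its edgeR log2 difference of -0.23 (unadjusted p = 0.0148) corresponds to 1.18-fold, under the fold required. Next was Mybl2, a transcription factor of proliferating cells, with a log2 difference of -0.20 (unadjusted p = 0.0708). Tfdp2, named after its value was seen, had nearly the same p and the opposite direction. Its edgeR log2 difference was 0.20 (unadjusted p = 0.0708), and the left was higher in 4 of 4 embryos. Among the 7 genes too low to test were the inhibitors Cdkn1a, Cdkn2a, Cdkn2b and Cdkn2c.

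Partners, antagonists and cofactors of MYC were followed through 19 genes, of which 17 were tested. Their levels were higher on the left for 11 and lower for 6, with a median log2 difference of 0.03. With edgeR, 0 of 17 passed the criterion, against 3.05% of all tested genes. At an unadjusted p under 0.05 there were also 0 of 17 with edgeR, against 4.36%. The criterion was met by 0 of 17 with DESeq2 and with limma-voom too, where 0.606% and 3.09% of all tested genes passed. The smallest p was that of Mlxip, a relative of the MAX-network factors, with a log2 difference of 0.20 (unadjusted p = 0.0593), followed by Mnt, a repressor that pairs with MAX, with -0.15 on the log2 scale (unadjusted p = 0.273).

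Genes known to be induced by MYC, largely for ribosome synthesis and metabolism, numbered 26, and all were tested. They were lower on the left for 20 and higher for 6, with a median log2 difference of -0.07, against -0.00423 over all tested genes. Whether the counts by direction in this list and those before it differ from those of other genes was not tested. Rrp9 alone, 1 of 26, passed the criterion that 3.05% of all tested genes passed. This component of the complex that processes ribosomal RNA had log2 ratios of -0.24, -0.43, -0.43 and -0.21 in L29-3, L43-5, L46-8 and L49-3. Levels were lower on the left in each of the 4 embryos, with an edgeR log2 difference of -0.34 (standard error 0.108, unadjusted p = 0.0089, edgeR adjusted p = 0.987). The call was lost with DESeq2, where 0.606% of all tested genes passed, and without L43-5, where 3.52% did. Of the 26 genes, 2 were at an unadjusted p under 0.05, against 4.36% of all tested genes, and the other was Nolc1, a nucleolar protein, with a log2 difference of -0.17 (unadjusted p = 0.0149), named after its value was seen.

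Several of the genes share exon sequence with a gene on the opposite strand, and it is not given whether reads were counted by strand. The largest partners by count, summed over the 8 libraries, were Rcbtb2 with 2251 counts and Lpar6 with 597 beside the 219 of Rb1, Bysl with 1502 beside the 2640 of Ccnd3, and Tspan31 with 718 beside the 11050 of Cdk4. Values of Rb1 and Ccnd3 are therefore uncertain to the extent that reads in shared exons were assigned to either gene. Ccnd3-ps, a pseudogene that matches Ccnd3 over 881 bases, had 6 counts in all.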

How the data were processed

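Poly-A RNA of the left and right heart field of 4 embryos was measured in 8 libraries. The deposited values are raw counts per gene, made by the authors with featureCounts from Hisat2 alignments to GRCm38 without duplicate reads. Aligner and counter versions and the use of strand are not given in the sources used here. Because duplicates were removed, counts of abundant genes may be understated.

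Symbols, positions and exon lengths are from GENCODE vM21, and 48144 of 48526 identifiers had a symbol. The filter of the study, a DESeq2-normalized count of 20 or more in 4 or more of 8 libraries, was applied, and genes were tested with the quasi-likelihood test of edgeR 4.0.16 (R 4.3.3) on TMM-normalized data, blocking on embryo, and adjusted by Benjamini-Hochberg over 9744 genes. Normalized read counts are DESeq2-normalized. CPM is TMM-normalized, and per-embryo log2 ratios add a pseudocount of 0.5 CPM. Intervals are 95% intervals of the edgeR estimate. Paralogue ratios were tested with an exact sign-flip permutation test over embryos. limma 3.58.1, DESeq2 1.42.0 and the other settings given at the end are alternatives, and the fits were tested on simulated data.

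Pairing is given by the labels, since both libraries of an embryo come from the same animal. Deviations from the side means correlated within L29-3, L43-5, L46-8 and L49-3 at 0.165, 0.190, -0.0158 and 0.437.

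The 10 genes and all lists were chosen with earlier results of these data known. Named are all 10, the genes of each further list past the criterion or, with none, those with the 2 smallest unadjusted p-values, and the pairs with the highest and lowest correlation.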

Additional observations from a re-analysis of the deposited data

How the results depend on the processing

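Of 140 recalculated log2 differences of the 10 genes, 130 kept their direction and their side of the criterion. Ccnd2 was negative in all 14 alternatives, from -0.44 to -0.21, and passed in 12, with adjusted p from 0.00955 to 1; its fit with no replicate block (unpaired) gave -0.32 (edgeR adjusted p = 1), and removing the block changed no call of the 10. The number past the criterion was 1, was 2 with no filter (Ccnd2 and Cdkn1c), and ranged from 0 to 1 when embryos were left out in turn, with 0 without L49-3 and Cdkn1c in place of Ccnd2 without L46-8. Of all tested genes, 2.88% passed with no filter. With embryos left out, from 2.86% (without L49-3) to 3.96% (without L46-8) passed. With no filter (23873 genes tested), 1 of the 10 genes (Ccnd2) had an edgeR adjusted p under 0.05 between sides in place of 0, beside 34 genes in all in place of 1, and 2 (Ccnd2 and Cdkn1c) differed between embryos in place of 0, beside 641 genes (2.69%) in place of 17. The count of MYC-related genes past the criterion fell from 1 to 0 with DESeq2, where 0.606% of all tested genes passed. It ranged from 0 to 1 with embryos left out, and the count of G1/S genes ranged from 0 to 1 (E2f2 without L29-3, Mybl2 without L46-8). The cause was not tested. Ccnd3 (0.00 without L43-5), Cdk6 (0.01 without L29-3), Mycn (0.02 without L43-5) and Myc (up to 0.16 without L43-5) changed sign, none past the criterion. With few counts for Rb1, differences of its size could not be told from the spread at this depth. Over all genes, 297 passed the criterion, against 59 with DESeq2, 687 with no filter, 954 and 731 with limma-voom on 23873 genes with and without the block, and 233 with edgeR without it.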
